A study of Rattus norvegicus with 30 samples.

Results

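The genes described here encode the cytosolic, mitochondrial and collagen-binding heat shock proteins Hspb1, Hsph1, Hspa8, Hsp90aa1, Dnajb1, Dnaja1, Hspd1, Hspe1, Hspa4 and Serpinh1, 10 genes in all. A gene was represented by the brightest probe set that carried its symbol and no other. By this rule 8 of the 10 were measured, on 12 probe sets, among 14217 genes that the array measured in this way. Hspa8 and Hsp90aa1 were present only on probe sets that carry several symbols, so no value is given for them.

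Treated groups were female DA rats, 10 weeks old, that received 1 intraperitoneal dose of irinotecan at 200 mg/kg under light halothane anaesthesia and were killed 1, 6, 24 or 72 h later. The rats killed at 0 h received no irinotecan, and no label says whether they had a sham injection or the anaesthetic. Whole jejunum, colon and stomach were taken from each rat, and RNA of 3 rats was pooled for an array. With 3 tissues and 5 times there were 15 groups of 2 arrays, 30 in all, and the same 6 rats gave all 3 tissues at a time. Because whole organ wall was used, fewer cells of a type and less RNA per cell cannot be told apart in any value below.

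Heat shock proteins are chaperones that keep unfolded proteins from clumping and help them refold. Small members such as Hspb1 (Hsp27) hold unfolding proteins without using ATP, J-domain proteins (Dnajb1, Dnaja1) hand clients to Hsp70, and the Hsp110 members Hsph1 and Hspa4 exchange the nucleotide on Hsp70. Hspd1 and Hspe1 (Hsp60 and Hsp10) form the folding chamber of mitochondria, and Serpinh1 (Hsp47) binds procollagen in the endoplasmic reticulum. Many of these genes are driven by heat shock factor, which binds inverted repeats of the unit GAA, called heat shock elements, in their promoters. In the gut, inducible heat shock proteins are known for protecting the epithelium during injury, and irinotecan is a topoisomerase I inhibitor whose main side effect is intestinal damage.

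The promoters of the 5 members whose differences passed a test over time are shown first. Each of them holds matches to paired units of the heat shock element. RefSeq windows of 300 bases (250 before to 50 after the start, build GRCr8) matched 9 of the 10 members, all but Hsp90aa1. Each line runs 5′ to 3′ on the gene's strand, and capitals mark every match to GAANNTTC or TTCNNGAA, each of which reads the same on both strands; where matches overlap they form 1 run.
Hspb1: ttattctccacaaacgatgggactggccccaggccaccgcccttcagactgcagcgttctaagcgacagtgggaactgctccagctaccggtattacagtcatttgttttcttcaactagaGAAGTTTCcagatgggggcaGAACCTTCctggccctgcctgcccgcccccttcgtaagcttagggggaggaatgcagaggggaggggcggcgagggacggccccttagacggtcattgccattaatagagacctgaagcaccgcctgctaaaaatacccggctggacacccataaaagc
Hsph1: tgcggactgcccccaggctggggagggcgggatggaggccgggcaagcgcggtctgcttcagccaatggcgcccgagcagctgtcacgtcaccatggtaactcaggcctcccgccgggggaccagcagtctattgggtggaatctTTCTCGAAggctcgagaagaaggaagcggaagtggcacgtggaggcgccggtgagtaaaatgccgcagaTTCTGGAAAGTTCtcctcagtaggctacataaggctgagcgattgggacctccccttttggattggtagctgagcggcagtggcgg
Dnajb1: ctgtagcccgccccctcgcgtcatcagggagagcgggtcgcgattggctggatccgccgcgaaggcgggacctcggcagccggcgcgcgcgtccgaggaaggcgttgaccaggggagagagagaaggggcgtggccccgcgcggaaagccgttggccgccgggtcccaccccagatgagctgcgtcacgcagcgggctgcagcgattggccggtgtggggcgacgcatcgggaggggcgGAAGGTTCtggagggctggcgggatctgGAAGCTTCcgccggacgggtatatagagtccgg
Hspe1: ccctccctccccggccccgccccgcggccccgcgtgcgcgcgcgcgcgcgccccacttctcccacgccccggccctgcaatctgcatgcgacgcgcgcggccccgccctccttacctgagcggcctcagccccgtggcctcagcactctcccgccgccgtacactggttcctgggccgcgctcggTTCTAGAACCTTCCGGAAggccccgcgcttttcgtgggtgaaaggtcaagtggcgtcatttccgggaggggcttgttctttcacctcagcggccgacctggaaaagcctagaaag
Serpinh1: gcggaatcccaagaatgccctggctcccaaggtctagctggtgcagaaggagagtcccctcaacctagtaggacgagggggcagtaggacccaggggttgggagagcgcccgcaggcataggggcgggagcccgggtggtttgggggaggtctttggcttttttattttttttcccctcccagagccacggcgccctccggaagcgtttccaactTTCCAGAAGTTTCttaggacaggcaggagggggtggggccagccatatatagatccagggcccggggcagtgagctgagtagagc
These windows lie at chr12:26432252-26432551 on the minus strand (Hspb1), chr12:10427118-10427417 on the plus strand (Hsph1), chr19:41431092-41431391 on the minus strand (Dnajb1), chr9:64084077-64084376 on the plus strand (Hspe1) and chr1:163062927-163063226 on the minus strand (Serpinh1).

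Either of these paired units was present in 8 of the 9 member windows (88.9%), against 15.9% of all 33469 promoter windows. A run of 3 units (GAANNTTCNNGAA or TTCNNGAANNTTC) was present in 6 of 9 (66.7%), against 0.798% of all windows. Serpinh1 carried TTCCAGAAGTTTC 35 to 23 bases before the start, and Hsph1 carried TTCTGGAAAGTTC 36 to 24 bases before it. Hspb1 held 2 separate pairs, GAAGTTTC and GAACCTTC, and the Hspa4 window held none. The Hspa4 window (chr10:37949786-37950085, minus strand) lies inside the gene span, which ends at 37951994, so the bases around that end were not searched. The starts used for Serpinh1 (163062976) and Hspd1 (64084037) also lie inside their gene spans. Hspd1 and Hspe1 stand head to head on chromosome 9, their gene spans overlapping by 6 bases, and their windows share 211 bases. The 18-base run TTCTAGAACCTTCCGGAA in the Hspe1 window (chr9:64084262-64084279) is the same stretch of DNA that the Hspd1 window reads from the other strand. That shared stretch counts in both windows in the member counts above. Among 13242 windows of genes named on the array, 12.1% held a paired unit and 0.476% a run of 3 units. The matches describe letters in a window and were not measured as binding sites.

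Values are RMA signals on the log2 scale as deposited, on which a difference of 1 is a doubling. Array medians lay between 6.965 and 7.055, and the 2 arrays of a group correlated at 0.9469 to 0.9959 over probe sets. Each tissue carried its own marker genes: median log2 signals of 13.29 to 13.52 for jejunal markers in the jejunum, 11.99 to 12.69 for colonic markers in the colon and 12.95 to 13.55 for gastric markers in the stomach. Some arrays also carried transcripts of other tissues. The stomach markers had a median of 9.41 on colon 24 h replicate 1, against 6.20 to 7.01 on the other colon arrays. The jejunal markers reached 10.31 on colon 24 h replicate 2, and pancreatic acinar markers reached 12.15 on colon 72 h replicate 2, 9.20 on colon 6 h replicate 1 and 13.44 on stomach 72 h replicate 1. The GAPDH control's 3′ signal exceeded its 5′ signal by 0.816 on jejunum 24 h replicate 1 and 0.557 on stomach 24 h replicate 1, a sign of lower RNA quality, with all other arrays under 0.5.

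Against 0 h, 8 of 96 tests of the members (8 genes, 4 times, 3 tissues) passed an adjusted p of 0.05 in limma, all of them higher after irinotecan. They fell on 4 genes: Hspb1 and Serpinh1 in jejunum and colon, and Hsph1 and Dnajb1 in jejunum. The jejunum gave 6 of these calls, the colon 2 and the stomach 0 of 32. In the jejunum the share of all probe sets called ran from 0.0354% at 1 h to 23.9% at 72 h. It ran from 0.0% at 1 h to 1.32% at 72 h in the colon, and from 0.00644% to 0.0322% in the stomach. The split of the calls between tissues is therefore not read as particular to the members. Dnaja1, Hspd1, Hspe1 and Hspa4 passed against 0 h at no time in any tissue. The differences at 1, 6, 24 and 72 h of a tissue share their 0 h arrays.

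**Figure D1:**
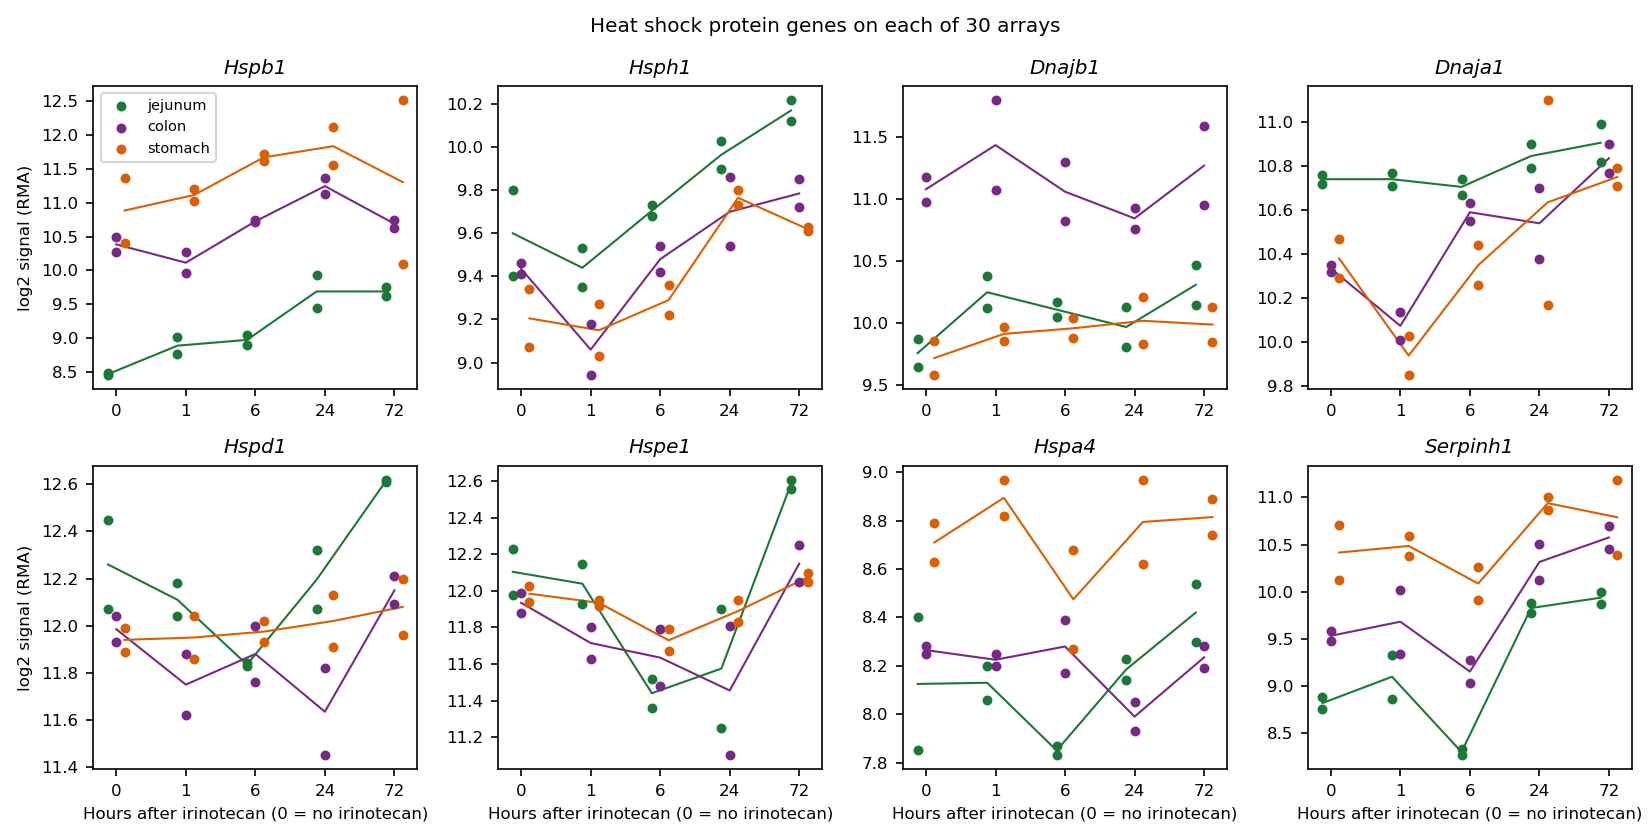
Log2 signal (vertical axis, scaled per gene) of the 8 measured heat shock protein genes on each of the 30 arrays by hours after irinotecan, 0 h being no irinotecan. Points are single arrays of jejunum, colon and stomach and lines join the means of 2 arrays; jejunal Hspb1 and Serpinh1 lay at 9.44 to 10.00 on the arrays of 24 and 72 h, above the 8.45 to 8.88 of 0 h.

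In the jejunum Hspb1 and Serpinh1 passed the test earliest, at 24 h, and by the widest margins. Hspb1 (probe set 1367577_at, gene at chr12:26430640-26432301) read 8.49 and 8.45 at 0 h, 8.76 and 9.02 at 1 h, 8.90 and 9.05 at 6 h, 9.94 and 9.44 at 24 h, and 9.76 and 9.62 at 72 h. Every treated array lay above both 0 h arrays. The difference was 1.22 ± 0.16 (SE) at 24 h, a fold of 2.33 (limma adjusted p = 0.0258), and again 1.22 ± 0.16 at 72 h (adjusted p = 0.00181). At 6 h it was 0.51 ± 0.16 without passing (adjusted p = 0.118).

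Serpinh1 (1371310_s_at, gene at chr1:163055630-163063177), the procollagen chaperone, was lowest at 6 h and rose later. In the jejunum it read 8.88 and 8.75 at 0 h, 9.33 and 8.86 at 1 h, 8.33 and 8.26 at 6 h, 9.88 and 9.77 at 24 h, and 10.00 and 9.87 at 72 h. The 6 h arrays were the lowest of the 10 and the arrays of 24 and 72 h the highest, with no overlap with 0 h on either side. The difference of -0.52 ± 0.14 at 6 h did not pass (adjusted p = 0.0779), while 1.01 ± 0.14 at 24 h (adjusted p = 0.0301) and 1.12 ± 0.14 at 72 h (a fold of 2.17, adjusted p = 0.00165) did. These were 2 of the 8 members called at 24 h, where 0.409% of all probe sets were called.

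Both calls of the jejunum at 24 h rested on few arrays. Left-out arrays gave adjusted p of 0.000439 to 0.249 for Hspb1 and 0.00188 to 0.272 for Serpinh1, and both calls were lost without either array of 0 h, of 6 h or of 72 h. In those fits the difference was 1.20 to 1.24 for Hspb1 and 0.95 to 1.07 for Serpinh1. Both calls held without either array of 1 h or of 24 h, and without 24 h replicate 1 the Hspb1 difference was 0.97. With the replicate number as a block, Hspb1 at 24 h had an adjusted p of 0.0652. At 72 h both calls held without any 1 array, with adjusted p up to 0.0248 and 0.0239.

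At 72 h a pair of Hsp70 partners rose as well. Hsph1 (1388898_at, gene at chr12:10427368-10446602), the Hsp110 exchange factor, read 9.80 and 9.40 at 0 h, 9.35 and 9.53 at 1 h, 9.73 and 9.68 at 6 h, 10.03 and 9.90 at 24 h, and 10.12 and 10.22 at 72 h. Both 72 h arrays lay above every earlier array, and the rise was 0.57 ± 0.13 (a fold of 1.48, adjusted p = 0.0174). Dnajb1 (1388722_at, gene at chr19:41427453-41431141), the inducible Hsp40, read 9.65 and 9.87 at 0 h, 10.38 and 10.12 at 1 h, 10.05 and 10.17 at 6 h, 9.81 and 10.13 at 24 h, and 10.47 and 10.15 at 72 h. Its 72 h arrays lay above both of 0 h and so did those of 1 and 6 h, with a rise of 0.55 ± 0.15 at 72 h (adjusted p = 0.0322) and a difference of 0.49 at 1 h that did not pass.

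The call of Hsph1 was lost without 0 h replicate 2 (and without either 72 h array), and that of Dnajb1 without either 0 h array, either 6 h array or 72 h replicate 1. Adjusted p ran from 0.0048 to 0.106 for Hsph1 and from 0.00693 to 0.202 for Dnajb1 over all settings and probe sets. So 4 of the 8 members rose in the jejunum at 72 h and 0 fell, where 23.9% of all probe sets were called and 11.9% were called higher. Both 72 h arrays lay above both 0 h arrays for 7 of the 8, against 29.7% of all probe sets. The members' median difference was 0.51, and that of all probe sets was -0.07.

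The mitochondrial pair had its lowest jejunal means at 6 h and its highest at 72 h. In the jejunum Hspe1 (1386898_at, gene at chr9:64084327-64087415) read 12.23 and 11.98 at 0 h, 12.15 and 11.93 at 1 h, 11.36 and 11.52 at 6 h, 11.25 and 11.90 at 24 h, and 12.56 and 12.61 at 72 h. Hspd1 (1386894_at, gene at chr9:64073610-64084332) read 12.45 and 12.07 at 0 h, 12.04 and 12.18 at 1 h, 11.84 and 11.83 at 6 h, 12.32 and 12.07 at 24 h, and 12.62 and 12.61 at 72 h. For both genes the 6 h arrays lay below and the 72 h arrays above both 0 h arrays.

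Against 0 h neither passed: Hspe1 differed by -0.67 ± 0.19 at 6 h (adjusted p = 0.091) and 0.48 at 72 h, and Hspd1 by -0.43 ± 0.13 at 6 h (adjusted p = 0.119) and 0.35 at 72 h. Between the later times Hspe1 was 1.01 ± 0.19 higher at 72 h than at 24 h, a fold of 2.01 (adjusted p = 0.01), the 1 member of 8 called in that jejunal comparison, where 12.9% of probe sets were called. That call was lost without either 72 h array, with adjusted p of 9.27e-05 to 0.0702 over the left-out arrays.

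At 6 h in the jejunum 0 of 8 members passed limma's adjusted p, with 3.49% of probe sets called. An unadjusted p under 0.05 was found for 5 of 8 members and for 19.9% of all probe sets. The count of members passing depended on the arrays of jejunum 24 h, which share the spread of the fit. Without jejunum 24 h replicate 1, the array with the largest GAPDH gap, 4 members passed at 6 h: Hspb1 higher (adjusted p = 0.00869), and Serpinh1 (adjusted p = 0.0225), Hspd1 (adjusted p = 0.0309) and Hspe1 (adjusted p = 0.00298) lower. The share of probe sets called then was 13.6%. Without that array 6 members passed at 72 h, Hspd1 and Hspe1 being added, with 37.8% of probe sets called. Leaving out replicate 2 of that time in its place gave the same values at 6 and 72 h. At 1 h 0 of 8 members passed, and 0.0354% of probe sets were called. There 2 of 8 members had an unadjusted limma p under 0.05, beside 4.73% of all probe sets.

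**Figure D2:**
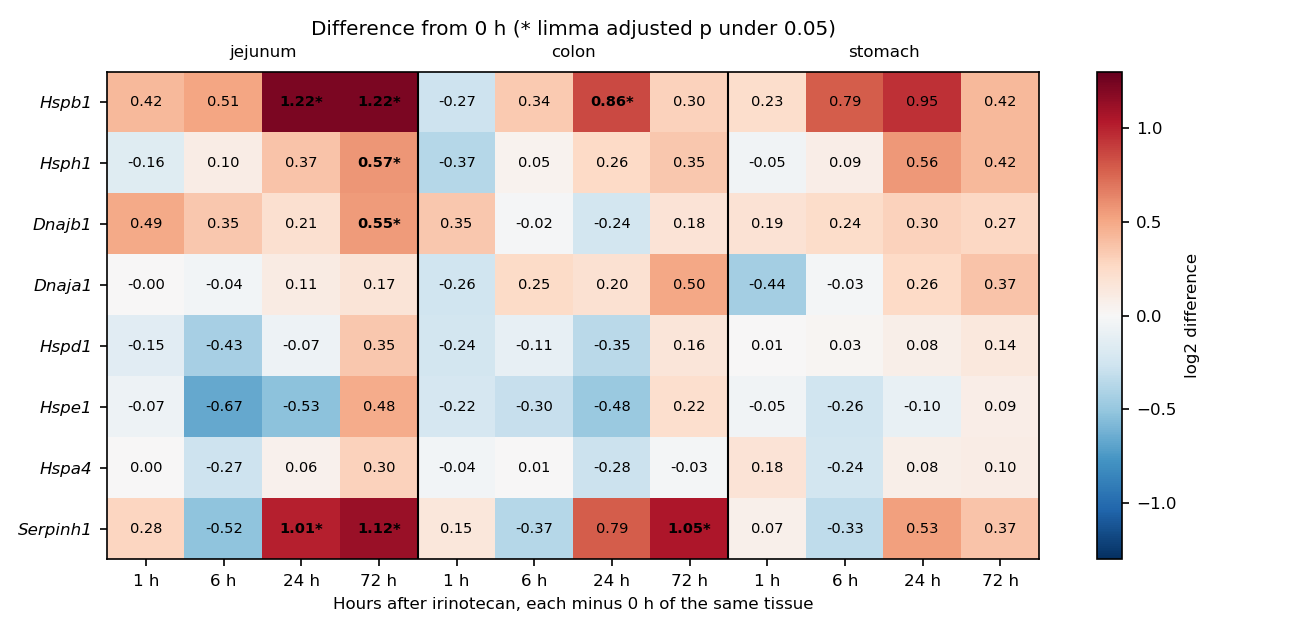
Difference in mean log2 signal from 0 h of the same tissue (colour and printed value) for the 8 genes down the page and the 4 times in jejunum, colon and stomach across it. Stars mark the 8 differences with a limma adjusted p under 0.05, all positive, of which 6 stand in the jejunum and 2 in the colon.

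Dnaja1 and Hspa4 gave no call in the jejunum. Dnaja1 (1398819_at, gene at chr5:60638404-60649315), the other J-domain member, lay between 10.67 and 10.99 on all 10 jejunum arrays, a range of 0.20 over its group means. Hspa4 (1370344_at, gene at chr10:37908866-37951994), the other Hsp110, lay between 7.83 and 8.54, lowest at 6 h (7.83 and 7.87) and highest at 72 h (8.54 and 8.30), and overlapped its 0 h arrays of 8.40 and 7.85 at both times. 

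In the colon Hspb1 peaked at 24 h and was lower again at 72 h. It read 10.50 and 10.27 at 0 h, 10.27 and 9.96 at 1 h, 10.71 and 10.74 at 6 h, 11.13 and 11.36 at 24 h, and 10.75 and 10.63 at 72 h. The 24 h arrays stood above the other 8. The rise at 24 h was 0.86 ± 0.14, a fold of 1.81 (adjusted p = 0.0173), the 1 member called of 8, where 1.14% of probe sets were called. At 72 h it was 0.55 lower than at 24 h (-0.55 ± 0.14, adjusted p = 0.04), again the 1 member called, with 6.73% of probe sets called.

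Colon 24 h replicate 1 carried stomach transcripts, and without it the difference was 0.98 with an adjusted p of 0.0342. The call was lost without colon 24 h replicate 2 or without either 0 h array, with adjusted p of 0.0182 to 0.248 and differences of 0.74 to 0.98 over the left-out arrays. The call of 72 h against 24 h was lost in 8 of the 10 fits that left out 1 array, namely each array of 0, 6, 24 and 72 h, with adjusted p of 0.0426 to 0.119.

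Serpinh1 in the colon was again lowest at 6 h and highest at 72 h. It read 9.58 and 9.48 at 0 h, 10.02 and 9.34 at 1 h, 9.27 and 9.03 at 6 h, 10.12 and 10.51 at 24 h, and 10.70 and 10.45 at 72 h. The 6 h arrays again lay below both 0 h arrays and those of 24 and 72 h above them. The rise at 72 h was 1.05 ± 0.21, a fold of 2.06 (adjusted p = 0.0448), the 1 member called of 8, with 1.32% of probe sets called and 0.892% called higher. It lay near the threshold: the call was lost without either 0 h array, either 6 h array or 72 h replicate 1, and in several other settings, with adjusted p of 0.0256 to 0.227 over the left-out arrays and up to 0.0703 over the other settings of the same probe set. Without the arrays that carried acinar transcripts it was 0.0703.

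The remaining colon values gave no calls. At 72 h both arrays lay above both 0 h arrays for 6 of 8 members, against 22.1% of probe sets, with a members' median of 0.26 and a median of -0.02 over all probe sets. Dnaja1 differed most among those that did not pass, with 10.90 and 10.77 at 72 h and 10.35 and 10.32 at 0 h (0.50 ± 0.12). At 1 h the pattern was turned round, with both arrays below both 0 h arrays for 6 of 8 members, against 24.7% of probe sets. Hsph1 read 8.94 and 9.18 at 1 h and 9.46 and 9.41 at 0 h (-0.37). At 1 h limma called 0 of 8 members and 0 probe sets, with 1 member and 4624 probe sets at an unadjusted p under 0.05. At 6 h limma called 0 of 8 members and 1.19% of probe sets. There 1 of 8 members had an unadjusted p under 0.05, beside 14.1% of all probe sets. At 24 h both arrays lay above both 0 h arrays for 4 of 8 members and below them for 4, against 28.2% and 21.4% of probe sets. There 5 of 8 members and 16.7% of probe sets had an unadjusted p under 0.05. Of these Hspb1 and Serpinh1 were higher, and Hspd1 (-0.35 ± 0.15), Hspe1 (-0.48 ± 0.20) and Hspa4 (-0.28 ± 0.11) lower. From 24 to 72 h Hspe1 differed by 0.69 ± 0.20 without passing (limma adjusted p = 0.0672). Dnajb1 was split widely between replicates, with 11.07 and 11.80 at 1 h and 10.95 and 11.59 at 72 h, against 10.98 and 11.18 at 0 h.

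In the stomach no member passed at any time. limma called 0 of 8 at 1, 6, 24 and 72 h, where 0.0161%, 0.0322%, 0.0161% and 0.00644% of probe sets were called. At these times 0, 1, 1 and 1 of 8 members had an unadjusted p under 0.05. Of all probe sets 5.72%, 8.83%, 8.34% and 7.56% did, so these counts lie near the background. Hsph1 had the smallest p of the members at 24 h, with 9.73 and 9.80 at 24 h and 9.61 and 9.63 at 72 h, against 9.34 and 9.07 at 0 h. Its arrays at 24 and 72 h lay above both 0 h arrays, with differences of 0.56 ± 0.12 (adjusted p = 0.571) and 0.42 ± 0.12. All 8 differences were positive at 72 h, with a median of 0.32 beside -0.04 for all probe sets, and both 72 h arrays lay above both 0 h arrays for 3 of 8 members, against 13.5% of probe sets. Between 24 and 72 h 0 of 8 passed, with 0 of 8 at an unadjusted p under 0.05 and 0.00322% of probe sets called.

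Hspb1 in the stomach was split between replicates more than any difference between times. It read 10.40 and 11.37 at 0 h, 11.20 and 11.03 at 1 h, 11.62 and 11.72 at 6 h, 12.12 and 11.55 at 24 h, and 10.09 and 12.52 at 72 h. The 72 h group held both the lowest and the highest stomach array. Keratinised squamous epithelium lines the forestomach of rats, and the median of 5 squamous markers went with Hspb1 within these pairs, with medians of 9.08 and 12.49 at 72 h and 7.50 and 10.04 at 0 h. Their part in the Hspb1 values was not tested. The difference of 0.95 ± 0.67 at 24 h had an adjusted p of 0.677.

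No member's response passed the test of a difference between tissues. In 1 limma fit of all 30 arrays, the tissue by time interaction called 0 of 8 members at each of 1, 6, 24 and 72 h. There 0.00322%, 0.251%, 0.229% and 2.28% of probe sets were called. No time had a member with an unadjusted p under 0.05, beside 9.07%, 13.7%, 13.2% and 19.6% of all probe sets. Thus the calls of Hspb1, Hsph1, Dnajb1 and Serpinh1 in the jejunum are not shown to be particular to it. Without stomach 72 h replicate 2, the interaction of Hspb1 at 72 h had an adjusted p of 0.00842.

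**Figure D3:**
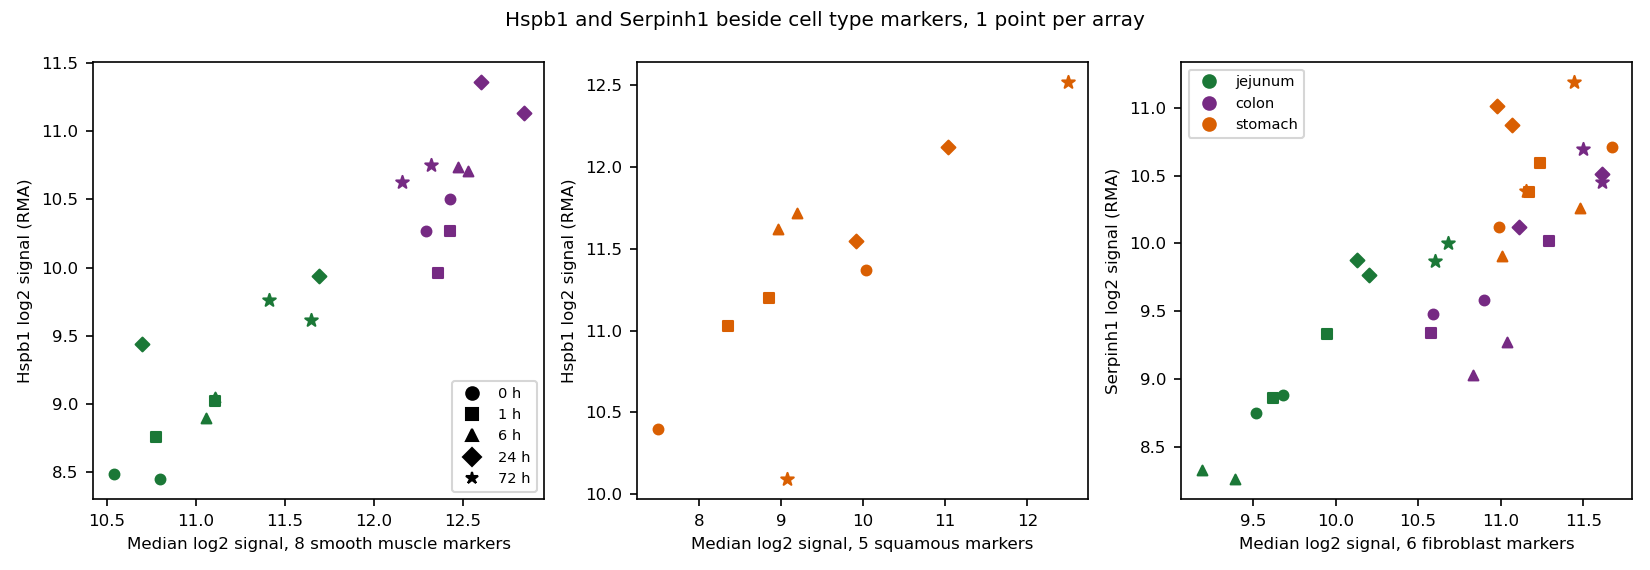
Log2 signal of Hspb1 (left, jejunum and colon, and middle, stomach) and Serpinh1 (right, all tissues) against the median log2 signal of smooth muscle, squamous and fibroblast markers, with 1 point per array and the symbol giving the time. Hspb1 lay at 10.09 and 12.52 on the 72 h stomach arrays, whose squamous markers lay at 9.08 and 12.49, and jejunal Serpinh1 lay at 10.00 and 9.87 on the 72 h arrays, whose fibroblast markers lay at 10.68 and 10.60.

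Markers of the gut wall moved beside these genes. In the jejunum the median of 8 smooth muscle markers was 10.54 and 10.80 at 0 h, 11.06 and 11.11 at 6 h, 11.69 and 10.70 at 24 h, and 11.41 and 11.65 at 72 h. At 72 h 3 of the 8 rose (Acta2, Actg2 and Des), beside 11.9% of all probe sets called higher. At 24 h 0 of 8 passed, beside 0.409% of all probe sets called. All 8 differences were positive at 24 h and 1 had an unadjusted p under 0.05, Des (1.04 ± 0.25, limma adjusted p = 0.115). On jejunum 24 h replicate 2 the smooth muscle median of 10.70 lay within the 0 h pair, while Hspb1 read 9.44, above its 0 h values of 8.49 and 8.45. In the colon, the smooth muscle median was 12.84 and 12.60 at 24 h, against 12.43 and 12.29 at 0 h, and 2 of 8 markers rose there, Des (0.77 ± 0.11) and Lmod1 (0.62 ± 0.12). At 24 h in the colon 1.14% of all probe sets were called. At 72 h minus 24 h in the colon, where 6.73% were called, 3 of 8 fell, Cnn1, Des and Lmod1. Hspb1 fell in the same comparison. The part of these markers in the Hspb1 differences was not tested.

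Fibroblast markers followed the order of Serpinh1 over time in the jejunum but not in every tissue. The median of 6 of them in the jejunum was 9.68 and 9.52 at 0 h, 9.19 and 9.39 at 6 h, 10.13 and 10.20 at 24 h, and 10.68 and 10.60 at 72 h, so it was lowest at 6 h and highest at 72 h as Serpinh1 was. At 24 h 1 of 6 and at 72 h 5 of 6 rose, beside 0.319% and 11.9% of all probe sets called higher. In the colon 1 of 6 rose at 72 h, beside 0.892% of all probe sets called higher. The fibroblast median there was 11.50 and 11.61 at 72 h, against 10.90 and 10.59 at 0 h. At 6 h in the colon, where Serpinh1 was lowest, it was 11.04 and 10.83, not below 0 h. In the stomach it was 10.98 and 11.07 at 24 h, against 10.99 and 11.67 at 0 h, while Serpinh1 read 11.01 and 10.87 at 24 h, against 10.12 and 10.71 at 0 h. Of these 6 markers Col1a1 and Col3a1 encode collagens that Serpinh1 itself folds. The macrophage median of the jejunum was 8.18 and 8.03 at 72 h, against 7.13 and 7.20 at 0 h. There 3 of 8 markers were higher, beside 11.9% of all probe sets. In the colon the macrophage median was 8.80 and 9.06 at 72 h, against 7.29 and 7.38 at 0 h. The part of these cell types in the Serpinh1 differences was not tested.

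The clients and enzymes around Serpinh1 gave most of their calls at 72 h. Of 14 collagen and collagen-modifying genes 2 rose in the jejunum at 24 h, both of them enzymes and neither a collagen: P4ha1, a prolyl hydroxylase subunit (0.68 ± 0.09, adjusted p = 0.0301), and Plod2, a lysyl hydroxylase (0.72 ± 0.10, adjusted p = 0.0323). Plod2 read 8.07 and 7.96 at 24 h and 7.43 and 7.16 at 0 h. At 24 h 0.409% of all probe sets were called. At 72 h 11.9% of all probe sets were called higher. In the list 11 of 14 rose at 72 h and 1 fell, with a median of 0.85 beside -0.07 for all probe sets. Among them were Col3a1 (1.70 ± 0.22, adjusted p = 0.00193), with 11.83 and 11.64 at 72 h and 10.05 and 10.02 at 0 h, Col4a1 (1.42) and Col5a2 (1.34). In the colon 5 of 14 rose at 72 h and 0 fell, with a median of 0.48: Col4a1 (1.05 ± 0.14, adjusted p = 0.0146), Col6a1 (0.91), Plod2 (0.79), Col5a2 (0.70) and Col1a1 (0.57). Of all probe sets 0.892% were called higher in the colon at 72 h. At 6 h Col1a1 fell in the colon (-0.50 ± 0.10, adjusted p = 0.0473), the 1 gene of the list called there, while Serpinh1 itself did not pass (adjusted p = 0.456). At 6 h in the colon 1.19% of all probe sets were called.

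Among chaperones outside the 10 genes, some stress-inducible genes rose in the jejunum at 6 h, when 0 of 8 members passed. Of 8 other small heat shock proteins 2 rose, Cryab (1.11 ± 0.21, adjusted p = 0.0276) and Hspb8 (0.88 ± 0.18, adjusted p = 0.0334), both abundant in muscle. Cryab, alpha B-crystallin, read 8.71 and 8.95 at 6 h and 7.79 and 7.64 at 0 h. Of 9 other Hsp70, Hsp110 and Hsp90 genes 2 rose, Hspa1a (0.79 ± 0.16, adjusted p = 0.0333) and Hspa2 (0.77), and Hspa14 fell (-0.44). Hspa1a, the classic inducible Hsp70, read 8.61 and 8.87 at 6 h and 8.11 and 7.78 at 0 h, and it has a near-identical copy, Hspa1b, whose transcripts its probe set may also detect. Of 15 co-chaperones 1 fell, the Hsp90 partner Fkbp4 (-0.91 ± 0.21, adjusted p = 0.0475), and 0 rose. In the other lists, 0 of 11 J-domain genes, 0 of 8 genes of the cytosolic chaperonin TRiC and 0 of 4 heat shock factors and regulators passed at 6 h. Beside these counts, 2.3% of all probe sets were called higher and 1.19% lower in the jejunum at 6 h.

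At 72 h the jejunum showed a wider rise of folding genes. For TRiC 7 of 8 subunits rose and 0 fell, with a median of 0.66. Co-chaperones gave 10 of 15 higher and 0 lower, with a median of 0.49, including Bag3, an Hsp70 exchange factor (0.70 ± 0.14, adjusted p = 0.00935). For the other Hsp70, Hsp110 and Hsp90 genes 5 of 9 rose and 0 fell, with a median of 0.66. These were Hspa2 (1.17 ± 0.16, adjusted p = 0.00254), Hsp90ab1 (0.93), Hspa9 (0.71), Hspa1a (0.69) and Hspa14 (0.66). Hsp90ab1, the constitutive cytosolic Hsp90, read 12.25 and 11.99 at 72 h and 11.45 and 10.94 at 0 h. Hspa9, the mitochondrial Hsp70 that works beside Hspd1 and Hspe1, read 10.94 and 10.96 at 72 h and 10.37 and 10.11 at 0 h. These shares stand beside 11.9% of all probe sets called higher there.

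Other lists gave calls in both directions at 72 h. The other J-domain genes gave 4 of 11 higher, among them Dnajc2 (0.67 ± 0.07, adjusted p = 0.00106), and 1 lower, with a median of 0.22. Other small heat shock proteins gave 2 of 8 higher and 1 lower with a median of 0.02, and heat shock factors and regulators 2 of 4 higher and 1 lower with a median of 0.21. From 24 to 72 h in the jejunum 8 of 8 TRiC subunits, 9 of 15 co-chaperones and 4 of 9 Hsp70, Hsp110 and Hsp90 genes rose and 0 fell, beside 8.77% of all probe sets called higher. In that comparison Cct8 differed by 1.06 ± 0.13 (adjusted p = 0.00216) and Hspa9 by 0.81 ± 0.10 (adjusted p = 0.00252), and Hspe1 by the 1.01 given above. Cct8 read 10.70 and 10.60 at 72 h and 9.44 and 9.74 at 24 h.

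**Figure D4:**
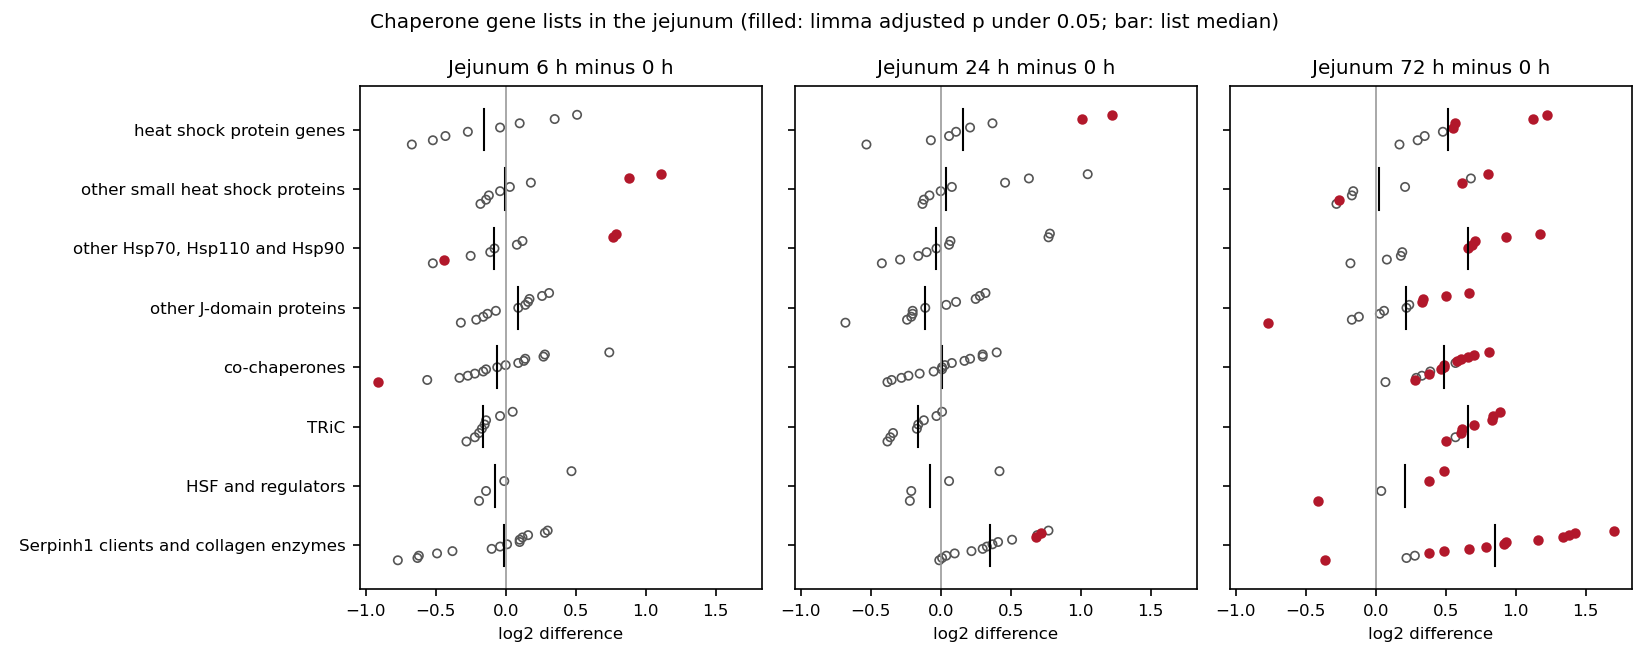
Log2 differences from 0 h in the jejunum at 6, 24 and 72 h for the 8 measured heat shock protein genes and for 7 lists of other chaperone and collagen genes, 1 circle per gene, filled where the limma adjusted p was under 0.05, with a bar at the list median. At 72 h the TRiC circles all lie to the right of 0 with 7 of 8 filled, while the other small heat shock proteins have a median of 0.02.

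In the colon Cryab rose at 24 h (1.22 ± 0.16, adjusted p = 0.00724), with 10.80 and 10.46 at 24 h and 9.38 and 9.43 at 0 h. It was the 1 gene called at that time among the 69 measured in the 7 lists, where 1.14% of all probe sets were called. That count lies near the background of all probe sets. Hspb1 was the 1 member called in the same comparison. At 72 h Cryab was lower than at 24 h, with 9.86 and 9.39 (adjusted p = 0.0109), as was Hspa1a (-0.58 ± 0.11, adjusted p = 0.0199) and Dnaja4 (-0.84), whereas Cct2 (0.82), Hspa9 (0.81 ± 0.20, adjusted p = 0.0413), Dnaja3 (0.54), St13 (0.45) and the collagen genes Col1a1 (0.74) and Col5a2 (0.65) rose. From 24 to 72 h in the colon 6.73% of all probe sets were called. Hsp90ab1 (0.11), Bag3 (0.18) and Hspa9 (-0.65) at 24 h minus 0 h did not pass in the colon. In the stomach 0 genes of the 7 lists passed at any time, and Hsp90ab1 differed by 0.58 ± 0.09 at 24 h without passing (adjusted p = 0.518). The tissue by time test called 1 of the 69 genes of the 7 lists, Dnajc2 at 72 h (adjusted p = 0.0439). At 72 h that test called 2.28% of all probe sets, so the count does not exceed the background. A difference between tissues in the response to irinotecan is shown for none of the other listed genes.

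Before treatment the members differed between tissues in 10 of 24 tests, spread over 5 genes. Between jejunum and stomach 4 of 8 members differed, 1 higher and 3 lower in the jejunum, with 32.2% of probe sets called. Colon and stomach gave 3 of 8, 1 higher and 2 lower in the colon, with 33.1% called, and jejunum and colon 3 of 8, all lower in the jejunum, with 45.7% called. The direction of that last count depended on the scaling: with quantile normalization 4 of 8 passed, 2 higher (Hsph1 by 0.34 and Dnaja1 by 0.48) and 2 lower (Hspb1 and Dnajb1) in the jejunum, with 36.2% of probe sets called. These shares lie near the background of all probe sets.

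Hspb1 was lowest in the jejunum, at 8.49 and 8.45, against 10.50 and 10.27 in the colon and 10.40 and 11.37 in the stomach. It differed by -2.41 ± 0.46 between jejunum and stomach (adjusted p = 0.000376) and by -1.92 ± 0.46 between jejunum and colon (adjusted p = 0.00247), while colon and stomach overlapped. Dnajb1 was highest in the colon, at 10.98 and 11.18, with 9.65 and 9.87 in the jejunum and 9.58 and 9.86 in the stomach. The colon exceeded the stomach by 1.36 ± 0.23 (adjusted p = 0.000183), and the jejunum differed from the colon by -1.32 ± 0.23 (adjusted p = 0.000189), while jejunum and stomach overlapped.

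Serpinh1 was ordered jejunum (8.88 and 8.75), colon (9.58 and 9.48) and stomach (10.12 and 10.71) from low to high, and every neighbouring pair passed. The jejunum differed from the stomach by -1.60 ± 0.25 (adjusted p = 4.62e-05), the colon from the stomach by -0.89 ± 0.25 and the jejunum from the colon by -0.71 ± 0.25. With quantile normalization that last difference was -0.50 and did not pass (adjusted p = 0.118). Hspa4 was highest in the stomach, at 8.79 and 8.63, with differences of -0.59 ± 0.16 for the jejunum and -0.45 ± 0.16 for the colon, and jejunum and colon overlapped at 8.40 and 7.85 and at 8.25 and 8.28. Hsph1 was 0.40 ± 0.14 higher in the jejunum than in the stomach (adjusted p = 0.0287). Dnaja1, Hspd1 and Hspe1 passed in none of the 3 comparisons when all arrays were kept on the deposited scale. Without either stomach 24 h array Dnaja1 was called higher in the jejunum than in the colon (adjusted p = 0.00531) and the stomach (adjusted p = 0.0136). Without jejunum 0 h replicate 2 so was Hspd1 (adjusted p of 0.039 and 0.032). At 0 h the smooth muscle markers were also lower in the jejunum, in 7 of 8 genes against the stomach and 6 of 8 against the colon. Of all probe sets 17.3% and 19.9% were called lower in the jejunum in those comparisons.

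Some calls between untreated tissues rested on single arrays. Hsph1 between jejunum and stomach was lost without stomach 0 h replicate 2 or jejunum 0 h replicate 1 (adjusted p of 0.00652 to 0.378 over the left-out arrays). Hspa4 was lost between jejunum and stomach without stomach 0 h replicate 1 or jejunum 0 h replicate 2 (0.000701 to 0.186) and between colon and stomach without any 1 of the 4 arrays compared (0.0159 to 0.188). Serpinh1 was lost between colon and stomach without replicate 2 of either (0.00347 to 0.15) and between jejunum and colon without any 1 of the 4 (0.0113 to 0.118). The calls of Hspb1 and Dnajb1 and that of Serpinh1 between jejunum and stomach held in all fits that left out 1 array.

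Some members resembled each other. Over the 15 group means, each centred on its tissue, Hspd1 and Hspe1 correlated at 0.874. Hspa4 correlated with Hspd1 at 0.737 and with Hspe1 at 0.718. Hsph1 correlated with Dnaja1 at 0.798, with Hspb1 at 0.779 and with Serpinh1 at 0.675. The lowest value was -0.123 for Hspb1 and Hspe1. These are descriptions of 15 points that share arrays and rats.

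Over all named genes, those most like Hspb1 were Flot2 (0.937), Ints15 (0.878) and the muscle intermediate filament gene Des (0.873). For Serpinh1 they were Emilin1, an elastic fibre glycoprotein (0.942), Camk1 (0.933) and Ehd2 (0.929). For Hspe1 they were the splicing factor subunit gene Snrpe (0.984), Chchd1 (0.974) and Cuedc2 (0.973), and for Hspd1 Pop5 (0.951), Tmed3 (0.947) and Ramp1 (0.946). Hspa4 was most like Pold1 (0.872), Fkbp4 (0.858) and Pole2 (0.846), of which Pold1 and Pole2 encode DNA polymerase subunits. Dnaja1 was most like the Hsp90 co-chaperone Chordc1 (0.895), Gimap5 (0.894) and Gpnmb (0.870), and Hsph1 like Iqcb1 (0.915), Boc (0.910) and Lrp1 (0.908). Dnajb1 had the weakest likenesses, Prmt6 (0.866), Mad2l1bp (0.785) and Dll4 (0.753).

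A second probe set existed for 4 of the genes. Over the 15 group means it correlated with the first at 0.938 for Hsph1, 0.912 for Dnaja1 and 0.840 for Dnajb1, and it gave the same sign in 10, 11 and 11 of 12 differences from 0 h. The second Hsph1 probe set did not pass between jejunum and stomach at 0 h (0.23 ± 0.21, limma adjusted p = 0.437), where the first did. In the jejunum at 72 h it rose as the first did (0.77 ± 0.18, adjusted p = 0.0172). That of Dnajb1 differed by 0.63 without passing (adjusted p = 0.125), within a range of 0.00693 to 0.202 over its settings. For Serpinh1 the second probe set, 1369009_at, was dim, with a mean of 6.00 against 9.86 for the first, correlated at 0.628 and had the same sign in 8 of 12. It gave -0.04 in the jejunum at both 24 and 72 h and 0.08 in the colon at 72 h, so the Serpinh1 differences rest on the brighter probe set alone, whose _s_ suffix marks probes that can match more than 1 transcript.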

How the data were processed

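Values were deposited by the authors as log2 signals of Affymetrix Rat Genome 230 2.0 arrays made with RMA, per the submitters' processing notes; its version, and whether all arrays were normalized in 1 run, are not stated in the sources used here. No scaling was added, and 0 columns went unused. Of 31099 probe sets 57 controls were left out. Of the 31042 tested, 20826 had 1 gene symbol, 436 several and 9780 none; 20758 matched the current gene table, which changed 0 symbols.

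Times were compared within each tissue (10 arrays) and tissues or interactions over 30 arrays with limma 3.58.1 under R 4.3.3, two-sided, with Benjamini-Hochberg adjustment over all probe sets and a threshold of 0.05. The ± values are limma standard errors, n = 2 arrays a group, and this number limits the precision. The 2 pools of a group hold 3 different rats each, and the 30-array fit leaves out that tissues share rats. The fits were tested on simulated data.

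Members, lists and tests were chosen with earlier results of these data known. Other chaperone genes were named from those past the threshold, at most 8 per comparison by adjusted p, plus Hspa1a, Hsp90ab1, Hspa9 and Bag3; Hspa1b had no probe set of its own. Likeness names the 3 highest correlations. Cell type markers are named where they passed. Alternatives were a filter on dim probe sets, quantile normalization, trend and robust variances, a replicate block, a random block, 1 fit of 30 arrays, leaving out arrays, and second probe sets.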

Additional observations from a re-analysis of the deposited data

How the results depend on the processing

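The count of members called against 0 h was 0 in the stomach under every setting run. In the jejunum the 6 calls became 2 in 1 fit of all 30 arrays, in which Hspb1 at 72 h had an adjusted p of 0.0658, 12 without the arrays whose GAPDH gap passed 0.5, 3 with second probe sets, and 2 to 13 when 1 array was left out. In the colon the 2 calls became 1 each with dim probe sets dropped, with quantile normalization, with the replicate block, in 1 fit of all 30 arrays, without the arrays that carried acinar markers and with second probe sets, and 0 to 3 when 1 array was left out. The 2 calls of 72 h against 24 h became 1 without the arrays with acinar markers and 1 to 4 with 1 array left out, and the 10 calls between untreated tissues became 6 with second probe sets and 7 to 12 with 1 array left out. The interaction gave 0 calls in every setting except 1 left-out array, which gave 0 to 1. The second Serpinh1 probe set turned the sign to -0.04 in the jejunum at 24 h and 72 h, to 0.14 for jejunum minus stomach and to 0.19 for jejunum minus colon at 0 h. The shares of all probe sets called under these settings, the replicate block included, are not given beside these counts. Leaving out a jejunum 24 h array also raised the share of all probe sets called, as given above. A changed count is therefore not read as a result about the members. The causes were not tested.

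Replicate numbers are shared by the groups. Deviations of same-numbered arrays from their group means correlated at -0.582 to 0.434 over 30 pairs of times within a tissue (11 over 0.1) and at -0.215 to 0.503 over 15 pairs of tissues at a time (5 over 0.1). The replicate numbers are therefore not taken to pair arrays across times. At 24 h all 3 pairs of tissues lay over 0.1, at 0.319 to 0.503, and the labels do not say whether same-numbered pools of different tissues hold the same rats. With the replicate block the calls were 0 in the stomach, 4 in the jejunum, 1 in the colon, 3 for 72 h against 24 h, 10 between untreated tissues and 0 for the interaction. Time by replicate number as a random block kept all 10 calls between untreated tissues. With 2 arrays a group, a difference that missed the threshold is not shown to be absent.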
